A study of Mus musculus with 10 samples.

Results

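Myosin, the motor of the sarcomere, carries on each of its heads 1 essential and 1 regulatory light chain, which stiffen the lever arm that swings when the head pulls on actin. Fast and slow muscle fibers, the heart and the developing muscle use different light chain genes. In skeletal muscle the regulatory chain is phosphorylated by a kinase that binds calcium-loaded calmodulin, and this phosphorylation is known to strengthen twitch force after repeated stimulation. The 8 genes followed here were picked by gene name, with earlier results of these data known, out of the 54232 genes of the table: the essential chains Myl1, Myl3, Myl4 and Myl6b, the regulatory chains Mylpf and Myl2, and the kinases Mylk2 and Mylk4. All 8 passed the limit on low values that 14289 genes passed.

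RNA-seq data were used of gastrocnemius muscle, a mostly fast calf muscle, from 5 homozygous desmin knock-out mice (genotype Des -/-) and 5 wild-type mice (Des wt/wt), all of the strain B6J.129Sv-Destm1Cba/Cscl by their labels and 3 months old by the methods. The discussion of the study speaks of gastrocnemius together with plantaris. The knock-out is constitutive, so desmin was missing in heart and smooth muscle as well. The methods describe the wild-type mice as littermates and speak of RNA pooled over 5 muscles per genotype, whereas the table has 1 column per mouse, and each column was treated as 1 replicate. Values are regularized log (rlog) values of DESeq2, a log2 scale corrected for library size on which each value is drawn towards the mean of its gene, so that differences are smaller than log2 fold changes of counts, mostly for genes with few reads. Counts and depth are unknown from such values.

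Des, the targeted gene, ranged from 11.76 to 11.89 in desmin knock-out and from 16.10 to 17.74 in wild-type mice, so each mouse carried the Des level of its label. None of 6 skeletal muscle markers passed the test (1 did without wild-type mouse 3), and their summed level was at least 21.58 in every mouse. Of 6 heart markers, Nppa, Nppb, Myl7 and Mybpc3 did not reach the limit on low values, Tnni3 rose at a low level and Myh6 did not pass. Wild-type mouse 3 stood apart: it correlated with the rest of its genotype at a mean r of 0.982, where the others had 0.989 to 0.991, and its values summed on the linear scale to 1.48 times the median of all mice. It had the highest wild-type value of 6 of the 8 light chain and kinase genes, and of 34.2% of all tested genes, so values without it are given below.

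Of the 8 genes, Myl4 rose, Myl3 and Mylk2 fell and the other 5 did not pass the test in desmin knock-out muscle (limma, adjusted p under 0.05 over all 14289 tested genes). The same rule called 13.7% of all tested genes, 7.7% as higher and 5.99% as lower. The 5 knock-out values of these 3 genes lay entirely above or entirely below the wild-type values, which was so for 14.4% of tested genes. The median log2 difference of the 8 genes was -0.33, beside -0.003 for all tested genes. It was not computed without wild-type mouse 3. Leaving out that mouse moved Myl1 from -0.32 to -0.17 and Mylpf from -0.41 to -0.18, but Mylk4 from -0.33 to -0.41. Without wild-type mouse 3, 5 of the 8 genes passed, Myl6b as higher and Mylk4 as lower in addition, in a fit that called 17.5% of all tested genes.

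**Figure D1:**
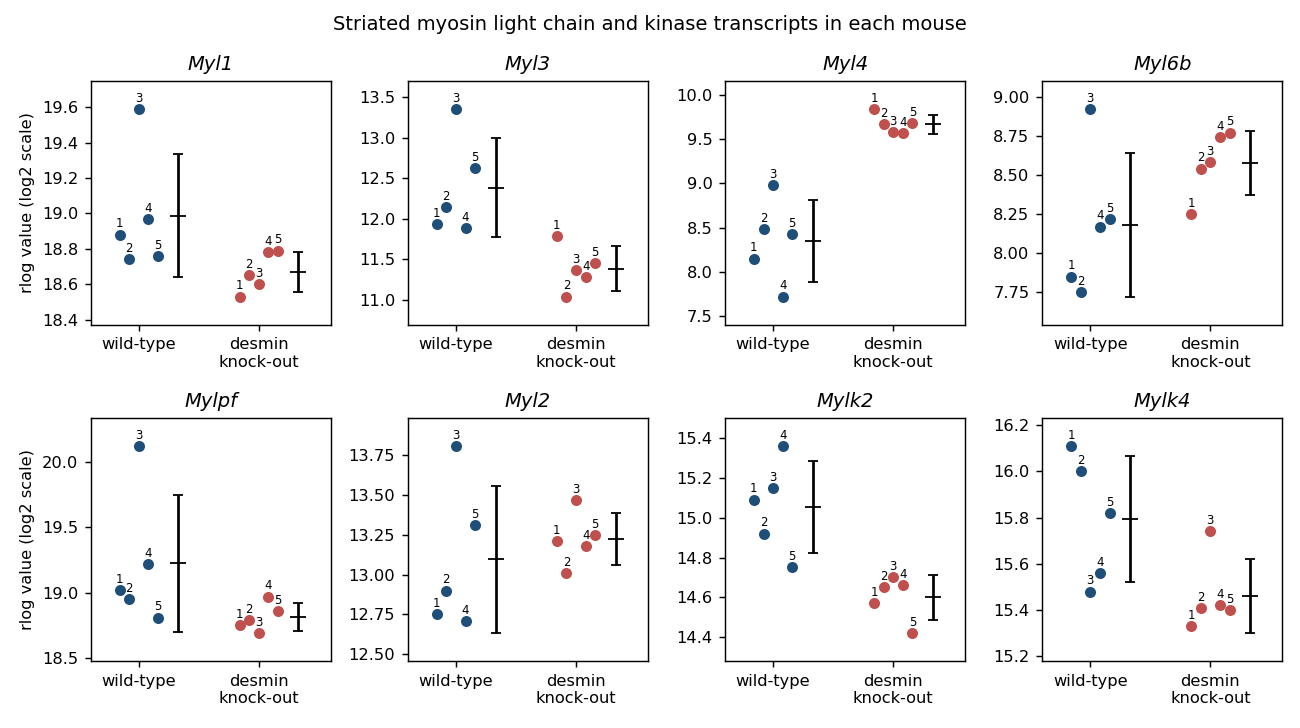
Deposited rlog value (log2 scale) of each of the 8 genes in 5 wild-type mice (blue) and 5 desmin knock-out mice (red); digits number the mice, and bars give the mean and SD of each group (n = 5). Each panel has its own axis. Myl4 lies higher and Myl3 and Mylk2 lie lower in desmin knock-out mice without overlap, and wild-type mouse 3 is the highest wild-type mouse for all 6 light chain genes.

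Members of the family resemble each other, so their sequences show how well reads can tell them apart. In the principal transcripts of GENCODE M21 (GRCm38), the coding sequences of Myl3 and Myl4, the essential chains that changed, were 78.1% identical over their aligned bases. Their longest run without a mismatch was 29 bases. It is shown in capitals between the bases that flank it.
Myl3, coding bases 388 to 476: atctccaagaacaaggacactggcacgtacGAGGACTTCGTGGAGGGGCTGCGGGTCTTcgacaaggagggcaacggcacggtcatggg
Myl4, coding bases 355 to 443: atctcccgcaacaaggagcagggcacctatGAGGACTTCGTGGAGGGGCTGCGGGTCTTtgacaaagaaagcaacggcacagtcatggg
No pair among the 6 light chains shared a longer run, and Mylk2 and Mylk4 shared at most 21 bases. The read length is not given in the sources used here.

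The regulatory chains begin with the arm that the kinases phosphorylate. The first 90 coding bases are shown of Mylpf, the chain of fast fibers, and of Myl2, the chain of slow fibers and of the cardiac ventricle, with a stretch of 15 bases that both share in capitals. It opens their longest shared run of 20 bases, which passes the end of the Mylpf stretch shown.
Mylpf: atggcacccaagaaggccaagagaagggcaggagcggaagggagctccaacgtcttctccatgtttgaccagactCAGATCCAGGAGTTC
Myl2: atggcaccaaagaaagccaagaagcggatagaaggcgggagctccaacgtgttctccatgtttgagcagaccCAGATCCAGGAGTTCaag
Over the whole coding sequence these chains were 71.7% identical.

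Myl4 (ENSMUSG00000061086, chromosome 11, 104550663 to 104595753) encodes the essential chain of embryonic skeletal muscle and of the adult atrium. Its rlog value was 9.84, 9.67, 9.58, 9.57 and 9.68 in desmin knock-out mice 1 to 5, and 8.15, 8.48, 8.98, 7.72 and 8.43 in wild-type mice 1 to 5. The knock-out mice lay close together, and each of them was above the highest wild-type mouse, mouse 3. The log2 difference was 1.31 (standard error 0.18, 95% confidence interval 0.93 to 1.70, adjusted p = 2.63e-04 from limma), which is 2.49-fold on the rlog scale. The exact two-sided permutation test over all splits of the mice gave p = 0.00794, below which groups of 5 and 5 cannot go. The difference was between 1.16 and 1.47 with each mouse left out in turn, and Myl4 passed in all 18 alternatives.

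The rise of Myl4 stood beside other genes of developing or regenerating muscle. From a list of 10 such genes without light chains, 7 rose and 2 fell, with a median log2 difference of 1.27. The embryonic myosin heavy chain gene Myh3 (log2 difference 2.25, standard error 0.19), the fusion gene Mymk (1.93, standard error 0.20) and Mymx, which encodes its partner in fusion (1.35, standard error 0.14), had the smallest adjusted p of the list. Actc1, the cardiac actin gene that fetal skeletal muscle also uses, fell (log2 difference -0.83, adjusted p = 0.0352 from limma), as did Myod1 (-0.47, adjusted p = 0.0219 from limma). With each mouse left out, the number of the list that rose was 7 or 8, and the number that fell was between 0 and 2. Myl7, the regulatory chain of the atrium, had a mean of -2.06 in both genotypes, among the lowest values of the table. The heart marker Tnni3, the cardiac troponin I, rose from 3.19 ± 0.17 to 3.71 ± 0.19 without overlap (SD, n = 5 each, adjusted p = 0.0158 from limma). Myh6, a heavy chain of the heart, had a log2 difference of 0.36 (limma, adjusted p = 0.345). The summed level of the 6 heart markers was 5.07 to 5.70 in knock-out and 4.57 to 5.32 in wild-type mice, and its part in the rise of Myl4 and Mylk3 was not tested. The list was written with earlier results on several of its genes known.

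Myl3 (ENSMUSG00000059741, chromosome 9, 110741861 to 110769798) encodes the essential chain of slow fibers and of the cardiac ventricle. It was 11.79, 11.04, 11.37, 11.28 and 11.45 in desmin knock-out mice 1 to 5, and 11.93, 12.14, 13.35, 11.88 and 12.62 in wild-type mice 1 to 5. The groups did not overlap, but knock-out mouse 1 came close to wild-type mice 1 and 4. Myl3 differed by -1.0 on the log2 scale (standard error 0.24, 95% confidence interval -1.52 to -0.48, adjusted p = 0.0143 from limma), and the wild-type level was 2.0-fold the knock-out level on the rlog scale. The exact permutation test gave p = 0.00794. Without wild-type mouse 3 the difference was -0.76 and still passed, while the fit without a limit on low values, with 28153 genes, gave an adjusted p of 0.055.

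Myl3 went the opposite way from most genes of slow fibers. Of 7 slow fiber genes other than myosins, 4 rose, none fell and 3 did not pass at an adjusted p under 0.05. The median difference was 0.85, and no difference was negative, but that of Tpm3 was 0.01 with a standard error of 0.23. Those that rose were Tnnt1, the slow troponin T (log2 difference 1.70, standard error 0.20), and Casq2, the slow and cardiac calsequestrin (1.01, standard error 0.19). The slow troponin I gene Tnni1 (0.91, standard error 0.21) and the Z-disc gene Myoz2 (0.85, standard error 0.22) rose as well. Myh7, the slow heavy chain to which Myl3 binds, had a log2 difference of -0.05 with a standard error of 0.32, since knock-out mice ranged from 10.48 to 12.50 and wild-type mice from 10.78 to 11.81. Within each mouse, Myl3 minus Tnnt1 lay between -2.26 and -1.53 in knock-out mice, and between 0.42 and 1.21 in wild-type mice. Tnnt1 had the largest rise of the 7 genes. Myl2 minus Tnnt1 was also lower without overlap, at -0.28 to 0.17 in knock-out and 1.24 to 1.90 in wild-type mice. Myl3 minus Myh7 overlapped, at -0.70 to 0.80 in knock-out and 0.29 to 1.54 in wild-type mice. Pth1r, a gene on the opposite strand, shares 95 exonic bases with Myl3 and had a mean rlog value of 4.76.

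The promoter of Myl3 is shown because Myl3 was the only striated light chain gene of the 6 that fell. The bases run from 250 before the RefSeq start site (GRCm38.p6, chr9:110763428-110763645, forward strand) to the first base annotated as an exon in GENCODE. Capitals mark both MCAT motifs (CATTCC on either strand, bound by TEAD factors) and the CArG box, bound by serum response factor.
Myl3 promoter: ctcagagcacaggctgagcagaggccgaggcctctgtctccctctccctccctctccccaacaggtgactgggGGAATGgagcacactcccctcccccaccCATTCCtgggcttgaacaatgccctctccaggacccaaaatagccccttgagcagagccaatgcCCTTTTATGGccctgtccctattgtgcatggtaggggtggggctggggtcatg
The MCAT motifs begin 177 and 149 bases and the CArG box 85 bases before the start site, without overlap between motifs. Over all 32851 promoter windows of 300 bases, 14.7% hold an MCAT motif, 1.6% a CArG box, 3.2% a MEF2 site and 72.3% an E-box (CANNTG on either strand). RefSeq windows were matched for 7 of the 8 genes, in 8 windows, of which 2 hold an MCAT motif, 1 a CArG box, 1 a MEF2 site and 7 an E-box. These matches describe the letters of the reference, and no binding was measured.

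Myl2 (ENSMUSG00000013936, chromosome 5, 122100951 to 122113472), the regulatory chain that pairs with Myl3 on slow myosin, did not pass the test. It had 13.21, 13.01, 13.47, 13.18 and 13.25 in desmin knock-out mice 1 to 5, and 12.75, 12.90, 13.81, 12.71 and 13.31 in wild-type mice 1 to 5. The knock-out values lay inside the wild-type range, which mouse 3 set at its upper end. Without that mouse the range ended at 13.31, below knock-out mouse 3, and the log2 difference was 0.31 (limma, adjusted p = 0.106). With sample weights Myl2 passed as higher (log2 difference 0.30; limma, adjusted p = 0.0293). The log2 difference was 0.13 (standard error 0.19, 95% confidence interval -0.27 to 0.53, adjusted p = 0.693 from limma), so a fall as large as that of Myl3 lies outside its interval. Myl3 minus Myl2, which does not depend on the scaling of a mouse, was -1.41, -1.97, -2.09, -1.91 and -1.80 in knock-out mice 1 to 5 and -0.82, -0.76, -0.47, -0.82 and -0.69 in wild-type mice 1 to 5. The mean of this difference moved from -0.71 ± 0.15 (SD, n = 5) in wild-type to -1.84 ± 0.26 (SD, n = 5) in desmin knock-out mice, with no overlap. The 2 slow light chain transcripts thus stood further apart in every knock-out mouse than in any wild-type mouse.

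**Figure D2:**
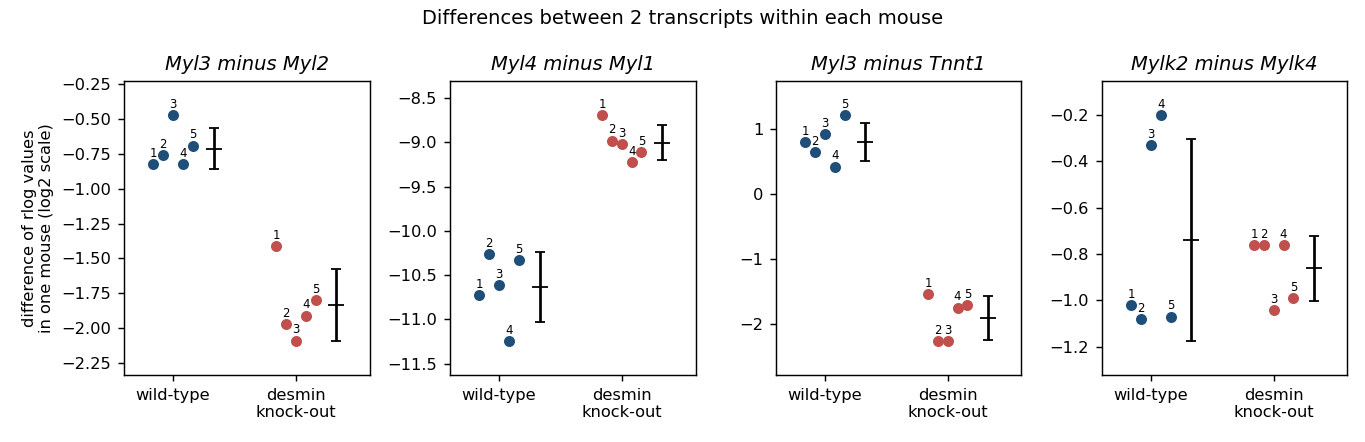
Difference between the rlog values of 2 transcripts in the same mouse (log2 scale), for 5 wild-type (blue) and 5 desmin knock-out mice (red); digits number the mice, and bars give the mean and SD (n = 5). Myl3 minus Myl2 and Myl3 minus Tnnt1 lie lower and Myl4 minus Myl1 lies higher in all knock-out mice, whereas Mylk2 minus Mylk4 overlaps between the genotypes.

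The fast chains Myl1 and Mylpf, which make up most light chain transcripts of this muscle, did not pass the test. Myl1 (ENSMUSG00000061816, chromosome 1, 66924295 to 66945404) encodes the fast essential chains, whose long and short forms come from alternative promoters and are summed in a gene-level value. It ranged from 18.53 to 18.79 in desmin knock-out and from 18.74 to 19.59 in wild-type mice. The groups overlapped, with 3 of 5 knock-out mice below all wild-type mice. Knock-out minus wild-type was -0.32 (standard error 0.19, log2 scale; limma, adjusted p = 0.302), and -0.17 without wild-type mouse 3. Myl1 starts 8.41 Mb from Des, and an effect of alleles linked to the targeted gene cannot be told apart from the lack of desmin.

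Mylpf (ENSMUSG00000030672, chromosome 7, 127208890 to 127214298), the fast regulatory chain and main substrate of the skeletal muscle kinase, ranged from 18.69 to 18.97 in desmin knock-out and from 18.81 to 20.12 in wild-type mice. Here too, 3 of 5 knock-out mice lay below all wild-type mice. On the log2 scale Mylpf differed by -0.41 (standard error 0.24; limma, adjusted p = 0.284), and by -0.18 without wild-type mouse 3, whose Mylpf value was 1.13 above the mean of the other wild-type mice. Myl1 minus Mylpf was -0.14 ± 0.06 in knock-out and -0.23 ± 0.19 in wild-type mice (both SD, n = 5) and overlapped. Both fast chains moved together from mouse to mouse: after removal of the genotype means, Pearson's r over the 10 mice was 0.975, and 0.835 without wild-type mouse 3, as a description of mice that share scaling and muscle.

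Myl6b (ENSMUSG00000039824, chromosome 10, 128494157 to 128498685) encodes an essential chain found in slow muscle and in non-muscle cells. It had 8.25, 8.54, 8.58, 8.74 and 8.77 in desmin knock-out mice 1 to 5, and 7.85, 7.75, 8.92, 8.17 and 8.22 in wild-type mice 1 to 5. Apart from wild-type mouse 3, every wild-type value lay below every knock-out value. Its log2 difference of 0.40 (standard error 0.19; limma, adjusted p = 0.202) became 0.58 without wild-type mouse 3 (limma, adjusted p = 0.00745). Relative to Myl1 in the same mouse, Myl6b was -10.09 ± 0.11 in knock-out and -10.81 ± 0.21 in wild-type mice (both SD, n = 5), without overlap.

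Per length of transcript, the light chain and kinase genes differed by orders of magnitude. In wild-type mice the rlog value minus the log2 of the transcript length in kb was 19.61 for Mylpf and 19.30 for Myl1, followed by 13.49 for Mylk2, 13.32 for Mylk4, 13.27 for Myl2, 12.48 for Myl3, 8.44 for Myl4 and 8.14 for Myl6b. Wild-type ranges of neighbours in this order overlapped except between Myl1 and Mylk2 and between Myl3 and Myl4. The light chains kept this order in desmin knock-out mice, with 11.48 for Myl3 and 9.75 for Myl4. On this scale Myl4 made up 0.166% ± 0.0233 of the 4 essential chains in knock-out and 0.0544% ± 0.0135 in wild-type mice, and Myl3 0.559% ± 0.142 and 0.902% ± 0.254 (SD, n = 5 each). The ranges did not overlap for Myl4 and overlapped for Myl3. Myl1 stayed near 99% in both genotypes (99.2% ± 0.16 and 99.0% ± 0.27, SD, n = 5). The changes of Myl4 and Myl3 thus concerned minor chains of the muscle as a whole, and bulk RNA cannot tell fewer fibers of a type from less transcript in each fiber.

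**Figure D3:**
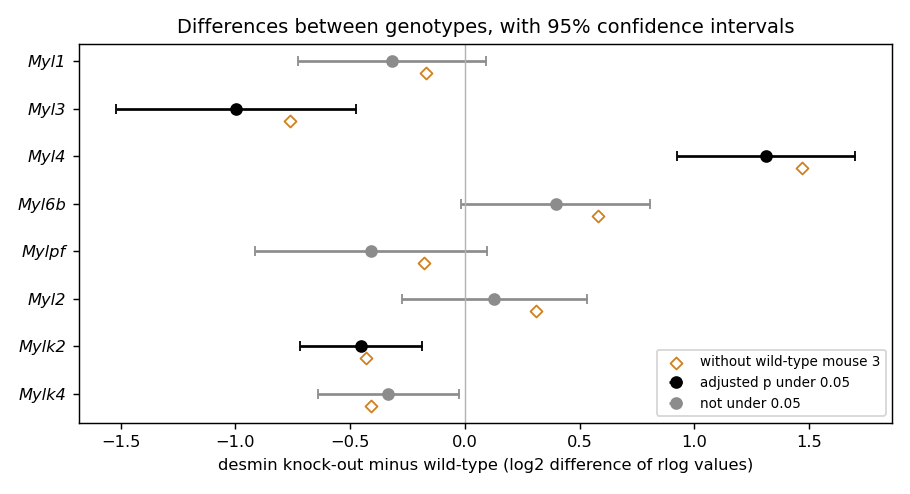
Log2 difference of rlog values, desmin knock-out minus wild-type, with 95% confidence intervals from limma (n = 5 per genotype); black marks an adjusted p under 0.05, grey the others, and diamonds give the difference without wild-type mouse 3. The intervals of Myl4, Myl3, Mylk2 and Mylk4 lie clear of 0, although Mylk4 did not pass after adjustment, and without that mouse Myl1 and Mylpf move to -0.17 and -0.18.

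Mylk2 (ENSMUSG00000027470, chromosome 2, 152911352 to 152923068) encodes the skeletal muscle myosin light chain kinase, which needs calmodulin to phosphorylate the regulatory chain. Its values were 14.57, 14.65, 14.70, 14.66 and 14.42 in desmin knock-out mice 1 to 5, and 15.09, 14.92, 15.15, 15.36 and 14.75 in wild-type mice 1 to 5. All knock-out mice lay below all wild-type mice, by 0.05 between the closest of them. The log2 difference was -0.45 (standard error 0.12, 95% confidence interval -0.72 to -0.19, adjusted p = 0.0255 from limma), and the wild-type level was 1.37-fold the knock-out level on the rlog scale (exact permutation test, p = 0.00794). The direction held in all 18 alternatives, with differences from -0.53 to -0.37. The call was lost without knock-out mouse 1, 2, 4 or 5 (adjusted p = 0.0605, 0.0541, 0.0521 and 0.08 from limma) and without a limit on low values (adjusted p = 0.0606 from limma).

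Mylk4 (ENSMUSG00000044951, chromosome 13, 32700834 to 32783954), a kinase of the same family that is abundant in striated muscle, had 15.33, 15.41, 15.74, 15.42 and 15.40 in desmin knock-out mice 1 to 5. In wild-type mice 1 to 5 it had 16.11, 16.00, 15.48, 15.56 and 15.82. In 4 of 5 knock-out mice it was below all wild-type mice, and knock-out mouse 3 fell inside their range. Its log2 difference was -0.33 (standard error 0.14; limma, adjusted p = 0.146), and -0.41 without wild-type mouse 3 (adjusted p = 0.0302 from limma). Wild-type mouse 3, the highest for the light chains, was the lowest wild-type mouse for Mylk4. Mylk2 minus Mylk4 was -0.86 ± 0.14 in knock-out and -0.74 ± 0.44 in wild-type mice (both SD, n = 5), so the lower means of both kinases left their ratio within the wild-type range.

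The genes that work with these kinases were counted from a list of calmodulin genes, the light chain phosphatase and its regulators. Of 12 genes, 1 fell and none rose, a share near the 5.99% of all tested genes that fell, and the median log2 difference was -0.14. The gene that fell was Calm3, which encodes calmodulin, from 13.35 ± 0.32 to 12.76 ± 0.11 (SD, n = 5 each; limma, adjusted p = 0.0114), with overlapping values. With each mouse left out, 1 or 2 genes of the list passed as lower, the second of them only without wild-type mouse 3. Ppp1r14b, which encodes a phosphatase inhibitor, differed by -0.43 on the log2 scale (limma, adjusted p = 0.2), and Ppp1r12a, which encodes a targeting subunit of the phosphatase, by 0.48 (limma, adjusted p = 0.217).

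Light chain and kinase genes of other tissues were mixed. Of 8 such genes, 7 were tested, of which 2 rose and 1 fell. Myl12a, a regulatory chain of non-muscle myosin, rose from 13.10 ± 0.13 (SD, n = 5) to 13.75 ± 0.14 (SD, n = 5) without overlap (adjusted p = 7.6e-04 from limma). Mylk3, the kinase of the heart, rose by 0.73 (adjusted p = 0.0149 from limma) at a low level, with means of 4.42 in knock-out and 3.69 in wild-type mice and overlapping values. Myl9, the regulatory chain of smooth muscle, fell by 0.58 on the log2 scale (adjusted p = 0.0257 from limma). Beside it, of 6 smooth muscle markers only Lmod1 passed, as lower, and their summed level was 12.54 to 13.02 in knock-out and 12.77 to 13.63 in wild-type mice. With each mouse left out, between 0 and 2 of these light chain and kinase genes passed as lower. The part of smooth muscle content in the fall of Myl9 was not tested.

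**Figure D4:**
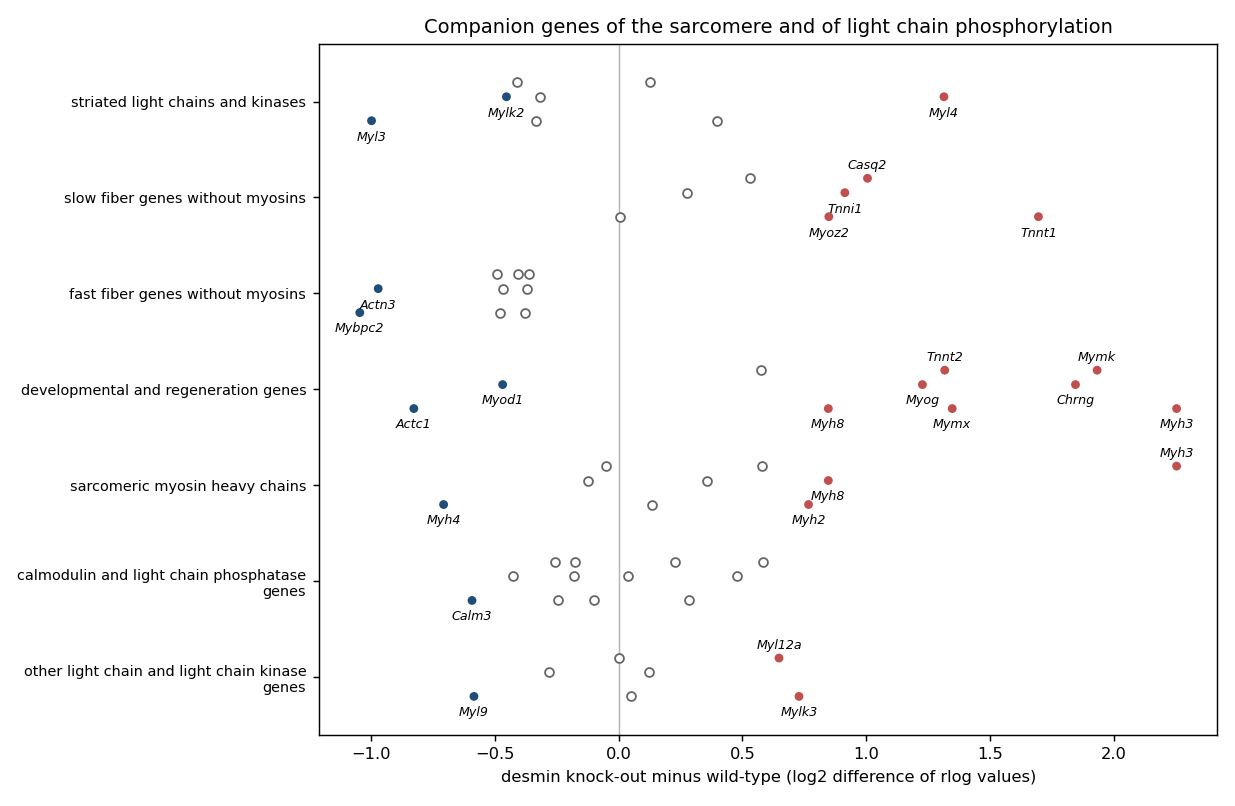
Log2 difference of rlog values (desmin knock-out minus wild-type) of each tested gene in the named lists; filled points passed at an adjusted p under 0.05 (limma; red higher, blue lower) and carry their names, open points did not, and vertical offsets only separate the points. Myl3 lies left of 0, while of the 7 slow fiber genes 4 are filled to the right and Tpm3 lies at 0.01.

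The heavy chains to which the light chains bind changed in both directions. Of 9 sarcomeric myosin heavy chain genes, 3 rose (Myh3, Myh8 and Myh2) and 1 fell, Myh4 (log2 difference -0.71, standard error 0.21), the heavy chain of the fastest fibers. With each mouse left out, the number that rose was between 2 and 4, and it was 3 in 6 of 10 fits. It was 2 without a limit on low values and 1 at an adjusted p under 0.01. The groups did not overlap for Myh4, but its fall passed in only 2 of 10 fits with 1 mouse left out, those without wild-type mouse 3 or 5, and not after quantile normalization, without a limit on low values, with the replicate number as a block or with the level of Y-linked transcripts in the model. All 9 fast fiber genes other than myosins had negative differences (median -0.47), and 2 of them fell, Mybpc2 (-1.05, standard error 0.19) and Actn3 (-0.97, standard error 0.25). Without a limit on low values, or without knock-out mouse 4 or 5, 1 of the 9 passed. Pvalb, the calcium buffer of fast fibers, had -0.48 (limma, adjusted p = 0.11). With all mice, the values of Myl1 and Mylpf, -0.32 and -0.41, were near this median. Wild-type mouse 3 had the highest summed level of the 9 fast fiber genes (22.68). Without that mouse Myl1 and Mylpf had -0.17 and -0.18, and the median of the 9 genes was not computed.

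Markers of other cells also moved between the genotypes. Of 5 erythroid markers, Hbb-bs and Alas2 were lower and none higher, with a summed level of 11.49 to 12.09 in desmin knock-out and 12.00 to 13.37 in wild-type mice. Of 5 fibroblast markers, Lum, Col1a1 and Col3a1 were higher and none lower, with a summed level of 13.54 to 14.14 and 13.05 to 14.07. None of 5 macrophage markers passed. With each mouse left out, 1 to 3 erythroid markers passed as lower and 1 to 3 fibroblast markers as higher. Their part in the changes of the light chain and kinase genes was not tested.

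Genes whose values followed a light chain or kinase most closely over the 10 mice were named by the highest Pearson correlation, 3 for each gene, as a description. For Myl4 these were Impa2 (r = 0.989), Zp2 (0.984) and the protease inhibitor gene Timp1 (0.981), and r was still 0.936, 0.907 and 0.907 after removal of the genotype means. For Myl3 they were Elk1 (0.985), the kinase gene Pak1 (0.981) and Mprip (0.966), which encodes a protein that binds the light chain phosphatase. Mylk2 was followed by Uts2r (0.963), the calmodulin-dependent kinase gene Camk2a (0.953) and Klhl25 (0.950). Mylk4 was followed by Ttll7 (0.977), Ube4a (0.961) and Musk (0.955), the receptor kinase of the neuromuscular junction. For Myl2 they were Tspan7 (0.956), Tsg101 (0.936) and Capn2 (0.897), and for Myl6b Tbca (0.963), Plgrkt (0.954) and Gcsh (0.952). These 6 genes had log2 differences between the genotypes of 0.05 to 0.18. Myl1 was followed by Ndufb8 (0.987), Tcea3 (0.986) and Wfdc1 (0.985), and Mylpf by Fbxo6 (0.992), Lgals1 (0.989) and Ccm2 (0.988). Without wild-type mouse 3, r lay between 0.904 and 0.944 for these followers of the fast chains.

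Spread differed between the genotypes. The SD of the 5 wild-type mice was larger than that of the 5 knock-out mice for all 8 genes, between 1.71 times (Mylk4) and 4.81 times (Mylpf), and for 82.9% of all tested genes. Without wild-type mouse 3 it was larger for 7 of the 8 genes and for 68.4% of tested genes, at 1.56 times for Mylpf, 3.20 times for Myl4 and 0.97 times for Myl1. With all mice, the median SD over tested genes was 0.246 in wild-type and 0.127 in desmin knock-out mice.

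**Figure D5:**
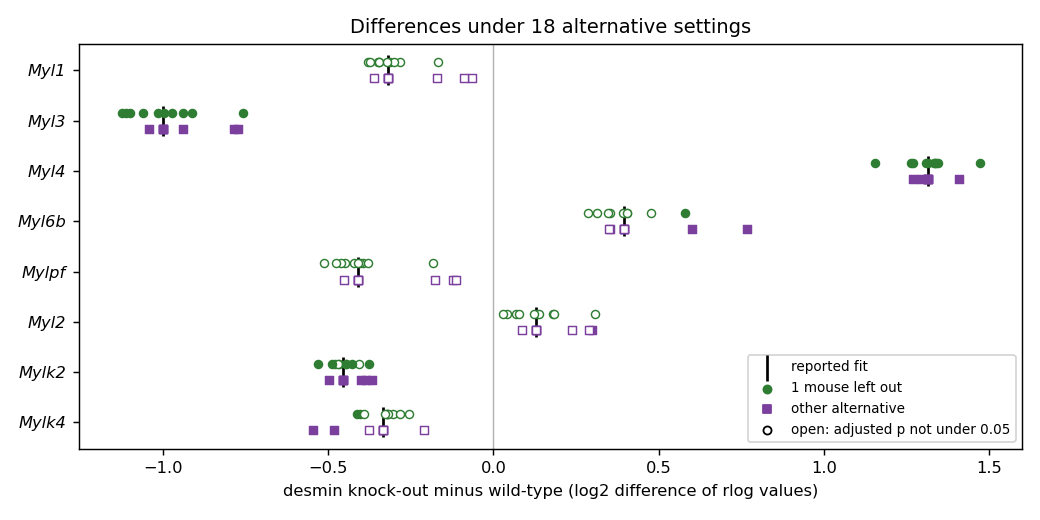
Log2 difference (desmin knock-out minus wild-type) of each gene in the reported fit (black line), with 1 mouse left out (green circles) and under 8 other settings (violet squares); filled symbols have an adjusted p under 0.05. No gene changes sign, Myl4 stays filled throughout, and Myl6b and Mylk4 are filled in 3 settings each.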

How the data were processed

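RNA was taken from gastrocnemius muscle of 5 desmin knock-out and 5 wild-type mice. The submitters' processing notes list cutadapt 2.5, STAR 2.5.4a, Subread 1.6.1 with featureCounts, DESeq2 and GRCm38. Libraries were made with a stranded mRNA kit, per the labels. The authors deposited rlog values on a log2 scale, and the settings of the transformation and the strand setting of the counting are not given in the sources used here. No counts were used, so depth and counting error are unknown.

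The 14289 of 54232 genes whose mean over all mice reached log2(10) were tested in R 4.3.3 with limma 3.58.1, two-sided, with a variance prior fitted to the mean level and Benjamini-Hochberg adjusted p-values across these genes. The step was tested on simulated data with known differences. That simulation gave both genotypes the same SD for a gene, unlike the measured values, and planted differences larger than that of Mylk2. Single genes were checked with exact permutation tests. Symbols were found for 54079 genes in GENCODE M21, positions and transcript lengths come from it, and promoters from RefSeq. Per-length levels use the longest principal transcript.

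The genes, companion lists and marker lists were chosen with earlier results of these data known. Genes were named by a rule: the 8 genes, Des, in each companion list the 3 genes of lowest adjusted p, and the 3 most correlated genes of each of the 8. Of the marker lists, those that passed are named. Myl7, Myoz2, Tpm3, Actc1, Myod1, Myh4 and Myh7 were named after their values were seen. A gene of the list of calmodulin and phosphatase genes is not reported here. Alternatives changed the limit (none, log2(50)), the scaling (centring on the median, quantile normalization), the variance prior (1 for all genes), the threshold (adjusted p under 0.01) or the model (limma's sample weights, a replicate block, or a covariate made of 4 Y-linked transcripts), or left out each mouse in turn.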

Additional observations from a re-analysis of the deposited data

Results flagged for a closer look

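Of 18 groups of 5 mice (each of the 8 genes and Des in each genotype), 3 contained 1 mouse that stood well away from the other 4. Chance alone flags about 1 in 20 groups. Wild-type mouse 3 was far above the other wild-type mice for Myl1 (19.59) and for Des (17.74). Its values of Mylpf and Myl3 were also the highest, but the other mice were too spread for it to be flagged. Desmin knock-out mouse 3 was above the other knock-out mice for Mylk4 (15.74). The sources of these values were not tested.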

How the results depend on the processing

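Among the 144 results of the 8 genes under 18 alternatives, 131 kept their direction and their side of the threshold, 7 passed where the reported fit did not, 6 no longer passed, and none reversed. The number of the 8 genes that passed was 3. The reported fit called 13.7% of all tested genes. It was 1 of the 8 without a limit on low values, where 5.55% of 28153 genes passed. At an adjusted p under 0.01 it was also 1, where 6.96% of all tested genes passed. It was 6 with sample weights (which gave wild-type mouse 3 a weight of 0.1), where 29.5% of all tested genes passed. With a Y-linked covariate it was 5, where 14.6% passed. With each mouse left out in turn, between 2 and 5 of the 8 passed, with 5 reached without wild-type mouse 3. Those fits called between 9.8% and 17.5% of all tested genes. Over all tested genes, 1956 passed, 4220 with sample weights, 994 at an adjusted p under 0.01, and between 1400 and 2496 with each mouse left out. Equal replicate numbers did not pair the mice (correlations of their deviations from -0.219 to 0.0673). With the replicate number as a block, 1579 genes and the same number of the 8 genes, 3, passed. Median centring and quantile normalization lowered the share of higher among called genes from 56.2% to 49% and 51%, and moved the median difference of all genes from -0.00293 to -0.0454 and -0.0214. Depth sets a limit that cannot be read from rlog values, and low genes such as Mylk3 are drawn most strongly to their mean.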
